A study of Mus musculus with 6 samples.

Results

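Eicosanoids are local lipid mediators made from arachidonic acid. The genes described here encode 10 proteins of their synthesis, namely the cyclooxygenases Ptgs1 and Ptgs2, the prostaglandin D2 synthases Hpgds and Ptgds, the inducible prostaglandin E2 synthase Ptges, the prostacyclin synthase Ptgis, the thromboxane synthase Tbxas1, and the leukotriene proteins Alox5, Alox5ap and Ltc4s. They were chosen by symbol with earlier results of these data known, and all 10 had a value among the 16344 genes of the table. RNA was measured in 6 mouse tumours, 3 from mice treated with AZD7507 and 3 from mice treated with vehicle. AZD7507 inhibits CSF1R, the receptor on which macrophages depend. Both groups carried tumours of 1 mouse cell line, 60577, injected into the peritoneum of syngeneic mice and left for 21 days, and the described course included 3 weekly cycles of carboplatin. Daily oral AZD7507 followed for 84 days, and collection was at the humane endpoint. The day of that endpoint and the age of the animals are not given in the sources used here, so treatment and time of collection cannot be told apart.

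Cyclooxygenases convert arachidonic acid, which phospholipases release from membranes, into the shared precursor prostaglandin H2. Terminal synthases then turn this precursor into prostaglandin D2, prostaglandin E2, prostacyclin or thromboxane A2. In the leukotriene branch, 5-lipoxygenase takes arachidonic acid from the membrane protein FLAP, and leukotriene C4 synthase adds glutathione to its product. Haematopoietic prostaglandin D synthase, thromboxane synthase and the leukotriene proteins are best known from macrophages, mast cells, platelets and other blood cells, whereas prostacyclin synthase is known from endothelium, smooth muscle and mesothelium. Tumour prostaglandin E2 is known for its effects on blood vessels and on immune cells.

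Values are log2 RPKM, the read density per gene length and library size on a log2 scale, normalized by the authors. Means are given ± SD with n = 3 in each group, and differences are AZD7507 minus vehicle. A gene was called where its limma p, adjusted over all 16344 genes by the Benjamini-Hochberg method, was under 0.05. The table holds no read counts, so the depth behind a value is unknown, and values under 0 lie under 1 RPKM. Csf1r, the drug target, averaged 2.35 ± 0.56 in AZD7507 tumours and 4.97 ± 0.45 in vehicle tumours, and it fell (limma adjusted p 0.035). Calls over all genes needed the full set of libraries: 55 genes were called lower, but only 0 to 14 without any 1 library, and Csf1r then had limma adjusted p of 0.067 to 0.15. It also missed the threshold with a constant variance prior (limma adjusted p 0.059) and without both libraries of replicate 2 (0.057). Of the 18 macrophage markers, 7 fell and 18 had a negative difference, against 0.337% and 45.5% of all genes. Krt18, an epithelial keratin (6.89 to 7.47), and Wt1, known from serous tumours and counted here among the mesothelial markers (6.13 to 6.72), were high in all 6 libraries, while Pax8, a defining marker of human serous tumours, lay between -3.89 and -2.09. Replicate 2 of each group stood apart, with 4454 RPKM in AZD7507 replicate 2 and 4100 RPKM in vehicle replicate 2 summed over 7 pancreatic acinar genes, against at most 8.79 RPKM in the other libraries.

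The promoter stretches of 6 of these genes are shown because 4 of them (Hpgds, Ltc4s, Tbxas1 and Alox5) had lower values in every AZD7507 library than in any vehicle library, while those of Ptgs1 and Ptgs2 overlapped. Each stretch is the 250 bases before the start that RefSeq annotates on GRCm38.p6, 5′ to 3′ on the gene's own strand. The gene spans given further below are GENCODE's, and their starts can differ: RefSeq's start lay 43582 bases downstream of GENCODE's for Tbxas1, 178 for Hpgds and 84 for Ltc4s, and at the same base for Ptgs1, Ptgs2 and Alox5. The Tbxas1 stretch therefore lies inside the GENCODE span of the gene, and those of Hpgds and Ltc4s overlap theirs in part. RefSeq promoters were matched for 8 of the 10 genes, and Ptgis and Alox5ap were not matched. Capitals mark matches, on either strand, to GGAAGT (the core of sites for ETS factors such as PU.1, a myeloid regulator), to TTGCNNAA (C/EBP), to TGACGT (the core of the cyclic AMP response element) or to TATAAA (the TATA box). The Hpgds stretch is chr6:65144731-65144980 on the minus strand, that of Ltc4s chr11:50238533-50238782 on the minus strand that of Tbxas1 chr6:38918736-38918985 on the plus strand and that of Alox5 chr6:116461179-116461428 on the minus strand. The Ptgs1 stretch is chr2:36230176-36230425 and the Ptgs2 stretch chr1:150099781-150100030, both on the plus strand.
Hpgds: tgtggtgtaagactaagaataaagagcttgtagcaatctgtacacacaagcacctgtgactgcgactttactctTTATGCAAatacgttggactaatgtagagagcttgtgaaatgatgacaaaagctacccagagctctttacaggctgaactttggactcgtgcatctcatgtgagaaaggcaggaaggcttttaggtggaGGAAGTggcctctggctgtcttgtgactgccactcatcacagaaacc
Ltc4s: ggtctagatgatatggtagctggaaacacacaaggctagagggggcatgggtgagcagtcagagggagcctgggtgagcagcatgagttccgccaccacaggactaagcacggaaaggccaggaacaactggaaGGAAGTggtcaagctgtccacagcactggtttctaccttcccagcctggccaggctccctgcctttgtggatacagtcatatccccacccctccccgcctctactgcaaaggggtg
Tbxas1: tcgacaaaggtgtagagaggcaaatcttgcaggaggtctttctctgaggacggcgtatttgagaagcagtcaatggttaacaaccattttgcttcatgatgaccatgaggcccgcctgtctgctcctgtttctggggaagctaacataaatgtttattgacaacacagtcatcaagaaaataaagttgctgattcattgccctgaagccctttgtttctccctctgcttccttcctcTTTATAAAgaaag
Alox5: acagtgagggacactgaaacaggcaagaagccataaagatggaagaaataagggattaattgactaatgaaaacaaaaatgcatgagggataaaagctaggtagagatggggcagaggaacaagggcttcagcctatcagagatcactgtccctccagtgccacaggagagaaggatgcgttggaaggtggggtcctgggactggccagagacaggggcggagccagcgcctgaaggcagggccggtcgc
Ptgs1: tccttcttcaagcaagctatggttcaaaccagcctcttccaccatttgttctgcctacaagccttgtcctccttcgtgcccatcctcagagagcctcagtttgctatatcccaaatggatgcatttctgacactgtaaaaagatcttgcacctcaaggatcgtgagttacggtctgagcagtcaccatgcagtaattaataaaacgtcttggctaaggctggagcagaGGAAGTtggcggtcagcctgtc
Ptgs2: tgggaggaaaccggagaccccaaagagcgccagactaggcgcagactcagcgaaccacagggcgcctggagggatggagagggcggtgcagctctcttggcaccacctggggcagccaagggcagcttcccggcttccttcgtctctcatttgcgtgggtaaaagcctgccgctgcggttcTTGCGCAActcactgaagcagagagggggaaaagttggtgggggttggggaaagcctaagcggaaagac

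GGAAGT was present before the starts of Hpgds, Ltc4s and Ptgs1, and in 19.7% of all 32851 RefSeq windows of this length. A C/EBP match lay before Hpgds and Ptgs2, against 9.56% of all windows. Tbxas1 held the TATA letters on both strands in overlapping positions, and 12.4% of windows held them. TGACGT, held by 6.47% of windows, had no match in these letters for any of the 8 genes, and the windows of Alox5, Ptges and Ptgds held no match to any of the 4 motifs. RefSeq's start lay 26566 bases downstream of GENCODE's for Ptges and 297 for Ptgds, so both windows lie inside the GENCODE spans. Among the 8 matched genes, the ETS core was held by 2 of the 4 with separated groups and by 1 of the 4 whose groups overlapped.

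Hpgds was the 1 member called, and it fell. Across the transcriptome 0.337% of genes were called lower and 0.0184% higher. Of the 10 members, 5 had every AZD7507 library below every vehicle library (Hpgds, Tbxas1, Alox5, Alox5ap and Ltc4s), against 8.02% of all genes. None of the 10 had every AZD7507 library above every vehicle library, against 7.34% of all genes. At an unadjusted limma p under 0.05, the same 5 members were lower and 0 were higher, where all genes gave 5.49% lower and 3.31% higher. The median difference of the 10 members was -0.70, against 0.03 over all genes. The members split evenly by sign, with 5 differences below 0, as had 45.5% of all genes. Those 5 were each -1 or lower, a size that 2.24% of all genes reached. Because the members were chosen with earlier results of these data known, these shares describe them and cannot serve as a test.

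**Figure D1:**
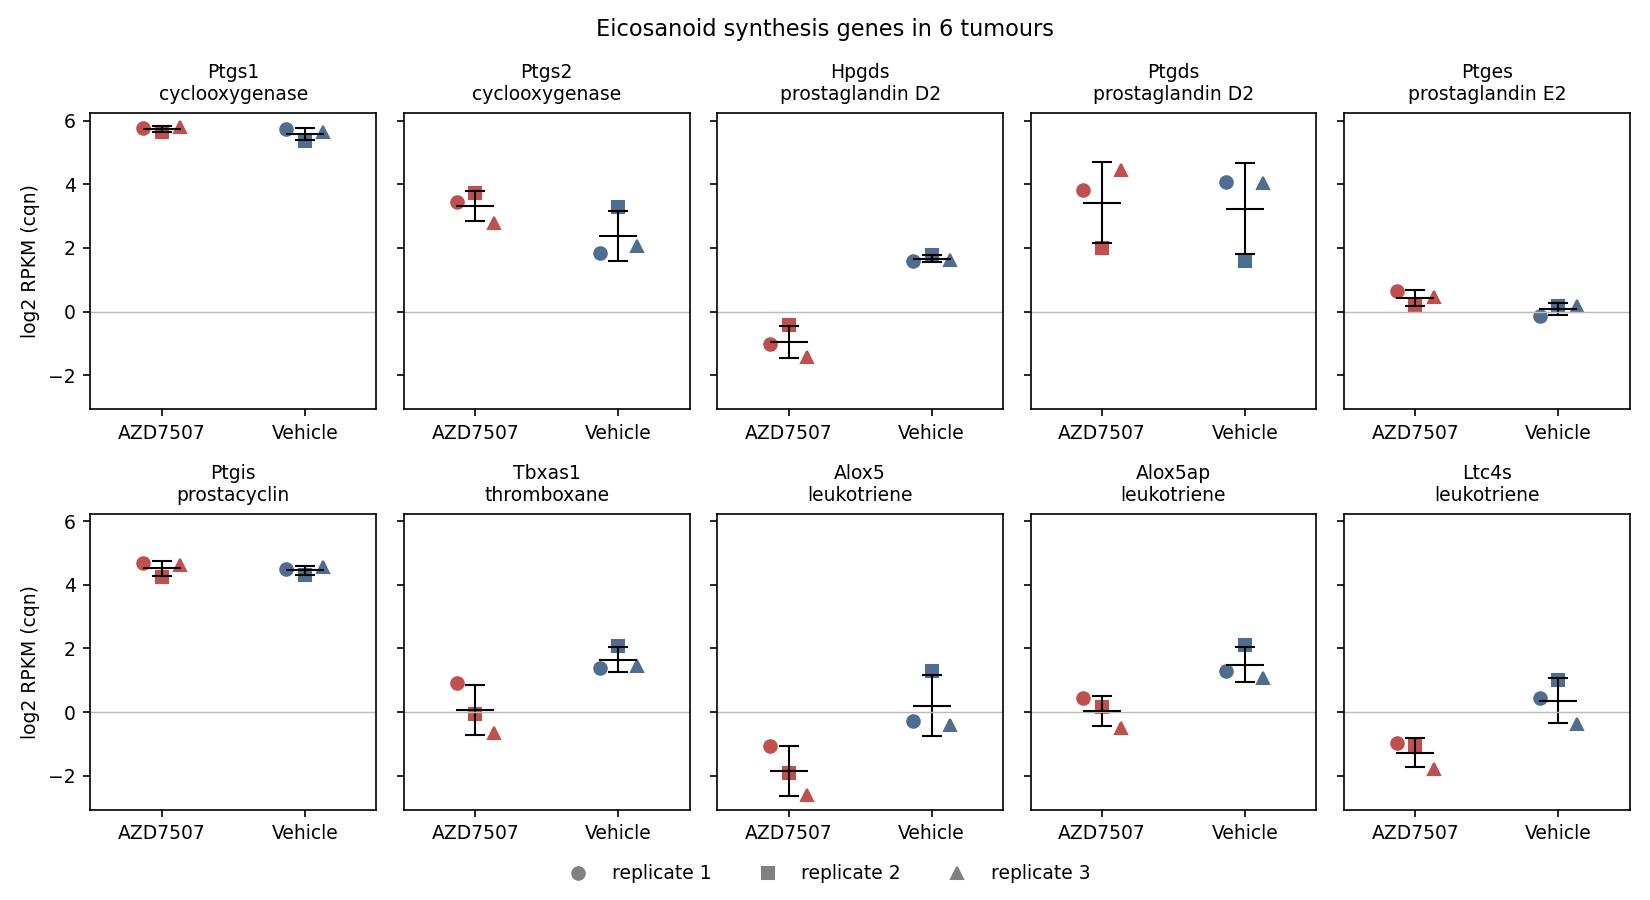
Log2 RPKM (y axis) of the 10 eicosanoid synthesis genes in the 3 AZD7507 and 3 vehicle tumours, 1 panel a gene. Symbols are single libraries, and bars give the mean and SD; the groups are separate for Hpgds, Tbxas1, Alox5, Alox5ap and Ltc4s and overlap for the other panels.

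In the prostaglandin D2 branch, both synthases differed in pattern. Hpgds encodes the glutathione-dependent, haematopoietic form (chromosome 6 of GRCm38, 65117293 to 65144908, minus strand, protein-coding). It was at -1.02, -0.43 and -1.42 in the AZD7507 libraries, against 1.58, 1.79 and 1.63 in the vehicle libraries. The vehicle values lay close together, and the highest AZD7507 value was well under the lowest of them. Hpgds averaged -0.95 ± 0.50 in AZD7507 tumours and 1.66 ± 0.11 in vehicle tumours, a difference of -2.62 (SE 0.28, 95% interval -3.27 to -1.97). This was 6.14-fold lower, with a limma adjusted p of 0.021 over all genes. In linear terms the geometric mean was 0.516 RPKM with AZD7507 and 3.17 RPKM with vehicle, so the fold rests on a low AZD7507 level. With a pseudocount of 1 RPKM the difference was -1.45 (limma adjusted p 0.012). Leaving out any 1 of the 6 libraries lost the call, with limma adjusted p of 0.099, 0.052 and 0.062 without AZD7507 replicates 1, 2 and 3, and 0.12, 0.083 and 0.13 without vehicle replicates 1, 2 and 3. The difference itself stayed between -2.88 and -2.39 in these fits. Without both acinar-rich libraries it was -2.82 (limma adjusted p 0.043), and over all 14 alternatives the adjusted p ran from 0.0051 to 0.13.

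A bulk tumour library cannot tell fewer cells of a type from less RNA per cell, and this holds for each gene below. Summed over the 18 macrophage markers, the level was 101 to 234 RPKM in AZD7507 tumours and 476 to 779 RPKM in vehicle tumours. Of the 18, 17 were lower in every AZD7507 library than in any vehicle library, against 8.02% of all genes. The part of macrophage number in the Hpgds difference was not tested. Mast cells also make this enzyme. Of 9 mast cell markers 2 were measured, Kit with a difference of 0.05 and Hdc with 0.33, and the summed level of both was 7.92 to 10.9 RPKM with AZD7507 and 4.83 to 11.4 RPKM with vehicle.

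Ptgds, the lipocalin-type synthase, lies on chromosome 2 at 25466709 to 25470046 on the minus strand. Its log2 RPKM was 3.82, 1.99 and 4.43 in AZD7507 libraries and 4.08, 1.58 and 4.04 in vehicle libraries. The 2 lowest values belonged to replicate 2 of each group, the libraries with high acinar transcripts, and the other 4 libraries lay between 3.82 and 4.43. The difference was 0.18 (SE 0.82, 95% interval -1.75 to 2.11, limma adjusted p 0.97). Its sign turned without AZD7507 replicate 1, AZD7507 replicate 3 or vehicle replicate 2, as it did with array weights. Between the acinar-rich libraries the difference was 0.41, and among the other 4 it was 0.06. The log2 ratio of Ptgds to Hpgds was 4.84, 2.42 and 5.85 in AZD7507 libraries, against 2.51, -0.21 and 2.41 in vehicle libraries. Ptgds thus lay above Hpgds in every library but vehicle replicate 2, which is acinar-rich, and the groups overlapped only narrowly.

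In the prostaglandin E2 branch, Ptges encodes the inducible microsomal synthase that works beside Ptgs2 (chromosome 2, 30889471 to 30929863, minus strand). It was at 0.65, 0.17 and 0.47 in AZD7507 libraries and at -0.14, 0.19 and 0.18 in vehicle libraries. The ranges overlapped, since AZD7507 replicate 2 lay under 2 vehicle libraries. The difference was 0.35 (SE 0.22, 95% interval -0.17 to 0.87, limma adjusted p 0.73), an interval that leaves room for a lower as well as a higher level. Of the other prostaglandin E2 synthases, the constitutive Ptges2 differed by 0.17 and Ptges3 by 0.20.

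The cyclooxygenases feed each prostanoid branch. Ptgs1, the constitutive form (chromosome 2, 36230426 to 36252272, plus strand), was at 5.76, 5.64 and 5.79 in AZD7507 libraries and 5.72, 5.35 and 5.65 in vehicle libraries. It was the most abundant member per length in both groups, and its mean exceeded that of 96.6% of genes with AZD7507 and 96.2% with vehicle. The difference of 0.16 (SE 0.13, 95% interval -0.15 to 0.47, limma adjusted p 0.81) was of the size of the spread between tumours. Ptgs2, the inducible form (chromosome 1, 150100031 to 150108227, plus strand), was at 3.43, 3.73 and 2.80 in AZD7507 libraries, against 1.83, 3.28 and 2.05 in vehicle libraries. Vehicle replicate 2 lay inside the AZD7507 range, and the other 2 vehicle libraries lay under it. Ptgs2 had the largest positive difference of the 10 members, 0.93 (SE 0.40, 95% interval -0.01 to 1.88), and did not pass (limma adjusted p 0.57). The difference was 1.18 among the 4 libraries low in acinar transcripts and 0.45 between the 2 rich in them. Without vehicle replicate 2 it was 1.38 (limma adjusted p 0.15), where all alternatives ran from 0.12 to 0.84.

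The log2 ratio of Ptgs2 to Ptgs1 was -2.33, -1.91 and -3.00 in AZD7507 libraries and -3.90, -2.07 and -3.60 in vehicle libraries. Ptgs1 was thus the higher of both cyclooxygenase transcripts in each tumour, and the ratio overlapped between the groups.

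Ptgis, which makes prostacyclin, a vasodilator that restrains platelets, lies on chromosome 2 at 167191805 to 167240604 on the minus strand. It was at 4.69, 4.25 and 4.61 in AZD7507 libraries and 4.49, 4.30 and 4.57 in vehicle libraries. The difference was 0.07 (SE 0.15, 95% interval -0.28 to 0.41, limma adjusted p 0.94), and its sign turned without AZD7507 replicate 1 or vehicle replicate 2. Ptgis had the narrowest interval after Ptgs1. Among markers of its known sources, 0 of 7 endothelial, 0 of 6 smooth muscle and 0 of 8 mesothelial genes were called. Their median differences were 0.04, 0.11 and 0.24. Over all genes 0.337% were called lower and 0.0184% higher, so 0 calls say little about lists this short. The mesothelial Gpm6a was higher in every AZD7507 library than in any vehicle library (difference 0.67, limma adjusted p 0.25), as were 7.34% of all genes.

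**Figure D2:**
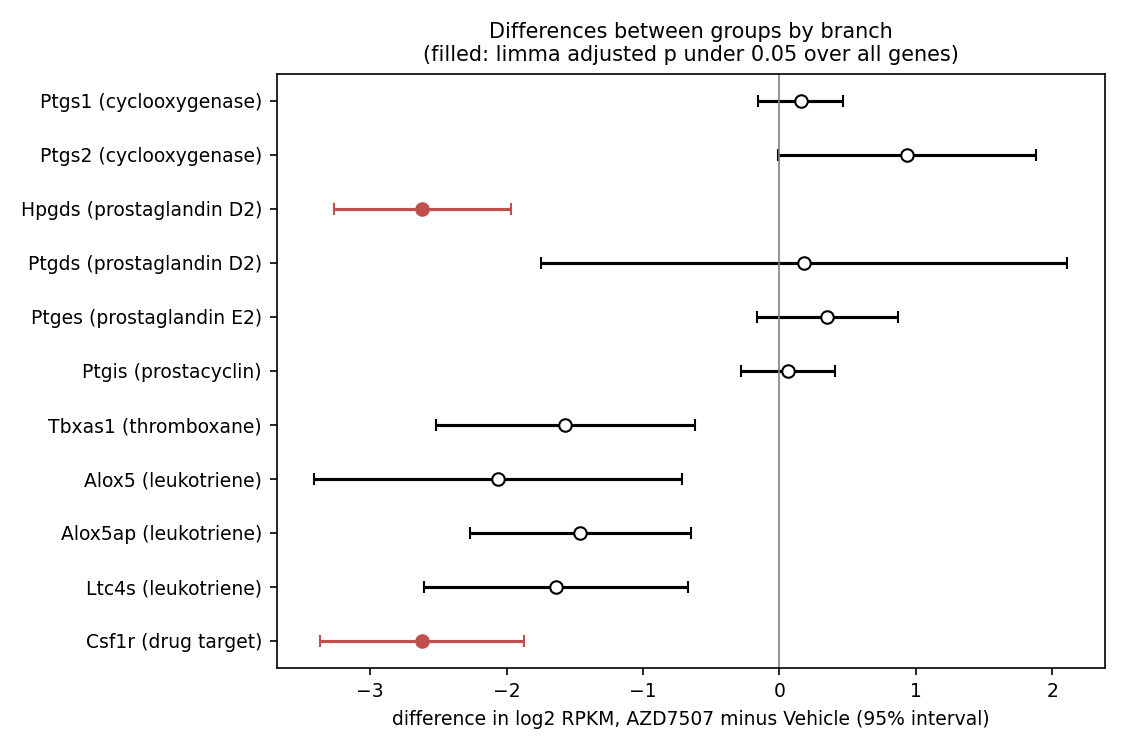
Differences in log2 RPKM (x axis, AZD7507 minus vehicle) with unadjusted 95% intervals from limma for the 10 members, ordered by branch, and for Csf1r. Hpgds at -2.62 and Csf1r at -2.62 are filled because they passed over all genes; the intervals of Tbxas1, Alox5, Alox5ap and Ltc4s lie below 0 without an adjusted call.

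In the thromboxane branch, Tbxas1 encodes the cytochrome P450 that makes thromboxane A2, which constricts vessels and activates platelets (chromosome 6, 38875404 to 39084585, plus strand). Its log2 RPKM was 0.93, -0.07 and -0.64 in AZD7507 libraries, against 1.39, 2.09 and 1.46 in vehicle libraries. The groups did not overlap, though AZD7507 replicate 1 came near the lowest vehicle library. The difference was -1.57 (SE 0.41, 95% interval -2.52 to -0.62), 2.97-fold lower, and it did not pass over all genes (limma adjusted p 0.25). Platelets are a classical source of this enzyme. Of 9 platelet and megakaryocyte markers 2 were measured: Pf4, which macrophages can also express, differed by -1.46 and Itga2b by 0.23, and neither passed. Their summed level was 3.19 to 4.35 RPKM with AZD7507 and 4.30 to 6.44 RPKM with vehicle.

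In the leukotriene branch, the transcripts of Alox5, Alox5ap and Ltc4s lay lower in every AZD7507 library than in any vehicle library, and none passed over all genes. Alox5, the 5-lipoxygenase gene (chromosome 6, 116410077 to 116461178, minus strand), was at -1.05, -1.91 and -2.61 in AZD7507 libraries and -0.27, 1.31 and -0.42 in vehicle libraries. The highest vehicle value, in replicate 2, stood well above the other vehicle libraries. The difference was -2.06 (SE 0.58, 95% interval -3.41 to -0.71, limma adjusted p 0.29), and it was -1.51 without vehicle replicate 2. With a geometric mean of 0.276 RPKM in AZD7507 tumours and 1.15 RPKM in vehicle tumours, Alox5 was among the weakest of the members.

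Alox5ap encodes FLAP, which presents arachidonic acid to 5-lipoxygenase (chromosome 5, 149264767 to 149288153, plus strand). It was at 0.43, 0.16 and -0.49 in AZD7507 libraries, against 1.28, 2.12 and 1.08 in vehicle libraries, and the groups did not overlap. The difference was -1.46 (SE 0.35, 95% interval -2.27 to -0.65, limma adjusted p 0.20), or 2.75-fold lower. Ltc4s, the leukotriene C4 synthase gene (chromosome 11, 50236461 to 50238616, minus strand), was at -0.98, -1.05 and -1.80 in AZD7507 libraries, against 0.44, 1.01 and -0.37 in vehicle libraries. The difference was -1.64 (SE 0.41, 95% interval -2.61 to -0.67, limma adjusted p 0.24), or 3.11-fold lower. Lta4h, which directs the pathway to leukotriene B4 instead and is expressed in many cell types, differed by -0.04. Tbxas1 and the 3 leukotriene genes lie near or under 1 RPKM in AZD7507 tumours, and with a pseudocount of 1 RPKM the difference was -0.98 for Tbxas1, -0.78 for Alox5, -0.92 for Alox5ap and -0.71 for Ltc4s. Of 10 neutrophil markers, another source of 5-lipoxygenase, 4 were measured and 0 were called. With 0.337% of all genes called lower and 0.0184% higher, 0 calls say little about so short a list. Csf3r differed by -0.68 and was lower in every AZD7507 library than in any vehicle library, as were 8.02% of all genes. S100a8, S100a9 and Cxcr2 differed by 0.91, 0.76 and 1.11, with overlapping groups. The summed level was 5.24 to 7.41 RPKM with AZD7507 and 3.27 to 9.88 RPKM with vehicle.

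The libraries of the AZD7507 group were ordered alike for Tbxas1, Alox5, Alox5ap and Ltc4s. There, replicate 1 was highest and replicate 3 lowest for each of the 4 genes, and so were the summed macrophage markers, at 234, 159 and 101 RPKM in replicates 1, 2 and 3. Within the vehicle group, replicate 2 was highest for Tbxas1, Alox5, Alox5ap and Ltc4s, and for the macrophage markers, at 476, 779 and 507 RPKM in replicates 1, 2 and 3. Hpgds followed another order in AZD7507 tumours, with replicate 2 highest and replicate 3 lowest. Csf1r had that same order, at 2.57, 2.78 and 1.71 in AZD7507 replicates 1, 2 and 3. Single macrophage markers thus differed in order, and Lyz2, the most abundant of them, was ordered as the sum (6.96, 6.02 and 5.32). In vehicle tumours Hpgds was also highest in replicate 2, though its values spanned only 1.58 to 1.79. As a description over the 6 libraries, which share the 2 treatment groups, Pearson's r was 0.99 between Alox5 and Alox5ap, 0.98 between Alox5ap and Ltc4s, and 0.97 between Tbxas1 and Alox5. For Hpgds with those 4 genes, r ran from 0.85 with Alox5 to 0.90 with Alox5ap.

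The order of levels per gene length differed between the groups. In AZD7507 tumours the mean log2 RPKM ran from Ptgs1 (5.73) through Ptgis (4.52), Ptgds (3.41), Ptgs2 (3.32), Ptges (0.43), Tbxas1 (0.07), Alox5ap (0.03), Hpgds (-0.95) and Ltc4s (-1.28) to Alox5 (-1.86). In vehicle tumours it ran from Ptgs1 (5.58) through Ptgis (4.45), Ptgds (3.23), Ptgs2 (2.39), Hpgds (1.66), Tbxas1 (1.64), Alox5ap (1.49), Ltc4s (0.36) and Alox5 (0.21) to Ptges (0.08). Neighbours with separate libraries were Ptgs1 and Ptgis, and Ptgs2 and Ptges, in AZD7507 tumours. In vehicle tumours they were Ptgs1 and Ptgis, Ptgis and Ptgds, Ptgs2 and Hpgds, and Alox5ap and Ltc4s. All other neighbours overlapped. Ptges was the fifth of the 10 with AZD7507 and the last with vehicle, although its own level did not pass the test, since 5 genes that lay above it with vehicle lay below it with AZD7507.

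Ratios within a library compared the branches themselves. For 14 pairs of enzymes from different branches, the log2 ratio was compared between groups by an exact 2-sided permutation test, which cannot give a p under 0.10 with 3 against 3 libraries. The ratio of Hpgds to Ptges was -1.66, -0.60 and -1.88 in AZD7507 libraries, against 1.72, 1.60 and 1.45 in vehicle libraries. Hpgds was thus below Ptges in each AZD7507 tumour and above it in each vehicle tumour, and the ratio differed by -2.97 (exact permutation p 0.10, adjusted p 0.14 over the 14 pairs). The ratio of Ptges to Tbxas1 averaged 0.35 ± 0.70 with AZD7507 and -1.57 ± 0.31 with vehicle, a difference of 1.92. Ptges to Alox5 averaged 2.28 ± 0.71 with AZD7507 and -0.13 ± 0.89 with vehicle, and Ptges to Ltc4s averaged 1.70 ± 0.53 with AZD7507 and -0.29 ± 0.73 with vehicle. In 10 of the 14 pairs the libraries of both groups were separate, each at the smallest possible p of 0.10 (exact permutation, adjusted p 0.14). With a pseudocount of 1 RPKM this held for 8 pairs, and Hpgds to Tbxas1 and Ltc4s to Ptgis had an exact permutation p of 0.20. The pairs share genes, and Hpgds, Tbxas1, Alox5 and Ltc4s were already separate on their own. The count of separate pairs therefore largely repeats those results, and the share among other gene pairs was not tested.

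Among the prostaglandin D2, thromboxane and leukotriene enzymes, 3 pairs overlapped between the groups: Hpgds to Alox5 differed by -0.56, Tbxas1 to Alox5 by 0.49 and Tbxas1 to Ltc4s by 0.07 (exact permutation p 0.50, 0.20 and 0.70). Ptges to Ptgis, at -4.09 ± 0.05 in AZD7507 tumours and -4.38 ± 0.26 in vehicle tumours, was the fourth overlapping pair (exact permutation p 0.20). Hpgds differed by more than Tbxas1 and Ltc4s, with ratios lower by 1.05 and 0.98 in AZD7507 tumours and separate libraries. The difference in the Hpgds to Tbxas1 ratio was -0.47 with a pseudocount of 1 RPKM, where the groups overlapped, and -0.59 without AZD7507 replicate 1. That in the Hpgds to Ltc4s ratio was -0.63 without vehicle replicate 3. None of these ratios could pass a threshold of 0.05 in this design.

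**Figure D3:**
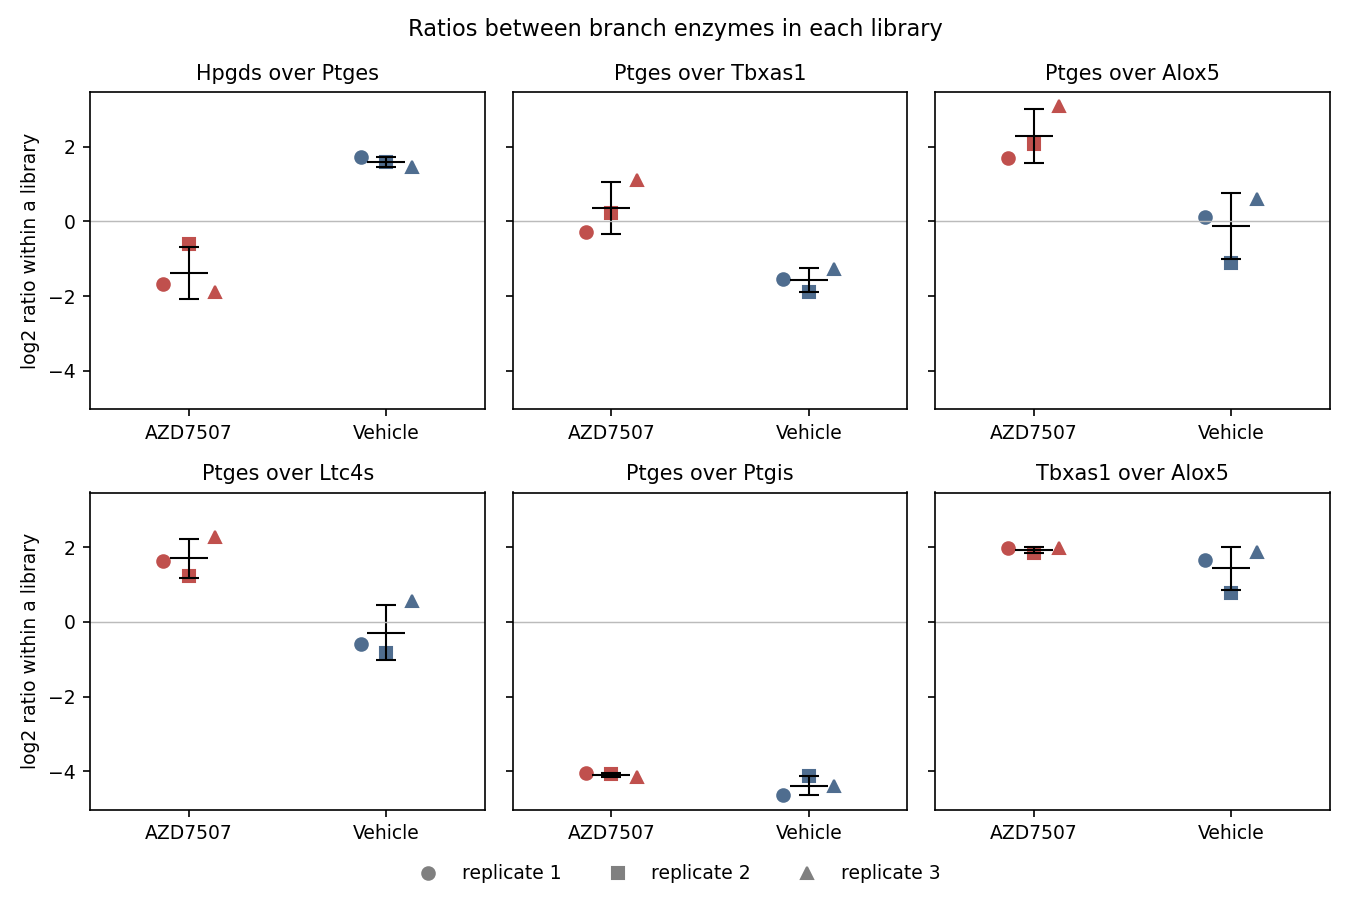
Log2 ratio between 2 branch enzymes in the same library (y axis) for 6 of the 14 pairs, in AZD7507 and vehicle tumours; symbols are libraries, bars the mean and SD. Hpgds over Ptges is below 0 in the 3 AZD7507 libraries and above 0 in the 3 vehicle libraries, whereas Ptges over Ptgis stays between -4.63 and -4.05 in all 6.

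The same comparison with Csf1r, chosen after the values had been seen, set each member against the macrophage receptor. The log2 ratio of Hpgds to Csf1r was -3.58, -3.21 and -3.13 in AZD7507 libraries and -3.27, -3.68 and -2.97 in vehicle libraries, with a mean of -3.31 in both groups (exact permutation p 1.0). The ratio of Alox5 to Csf1r differed by 0.56 and overlapped. For Tbxas1, Alox5ap and Ltc4s the ratio was higher in every AZD7507 library than in any vehicle library, by 1.05, 1.16 and 0.98 (exact permutation p 0.10 each, adjusted p 0.14 over the 10 members). So it was for Ptgs1, Ptgs2, Ptges and Ptgis, by 2.77, 3.55, 2.97 and 2.68, which makes 7 of the 10 members. Csf1r was itself lower in every AZD7507 library, so a gene that fell less can separate through Csf1r alone. The share among all genes was not tested. The macrophage markers themselves also varied. Their plain differences in log2 RPKM, not set against Csf1r, ran from -3.18 for Cx3cr1 to -0.69 for Trem2, with Cd33 at -2.55, Tyrobp at -1.63 and Mertk at -1.20.

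In the 4 surrounding lists of the pathway, 0 genes were called in either direction with limma. Over all genes 0.337% were called lower and 0.0184% higher, so 0 calls say little about lists this short. Of 14 measured genes of arachidonate release, 2 were lower and 0 higher at an unadjusted p under 0.05, and the median difference was -0.06. At this limma p, 5.49% of all genes were lower and 3.31% higher, shares that also apply to the lists below. Plcb2, a phospholipase C of blood cells, was at -0.67 ± 0.41 in AZD7507 tumours and 0.82 ± 0.19 in vehicle tumours (difference -1.50, limma adjusted p 0.097). Pla2g15, a lysosomal phospholipase, differed by -0.58 (limma adjusted p 0.52) and Pla2g7, which breaks down platelet-activating factor, by -0.42. Pla2g4a, the cytosolic phospholipase A2 that releases arachidonic acid, lay at 2.67, 2.71 and 2.63 in AZD7507 libraries and 2.70, 2.61 and 2.42 in vehicle libraries.

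Of 16 other eicosanoid enzymes, 1 was lower and 0 were higher at an unadjusted p under 0.05, with a median of -0.03. That gene was Dpep2, a dipeptidase that converts leukotriene D4 to E4, at 0.18 ± 0.62 with AZD7507 and 1.48 ± 0.60 with vehicle (difference -1.29, limma adjusted p 0.37). Ggt5, which acts on leukotriene C4 at the preceding step, differed by -0.46, and Alox15, a lipoxygenase, by 0.59. Of 12 genes of breakdown and transport 0 reached an unadjusted p under 0.05 in either direction, and the median was 0.04. Hpgd, which inactivates prostaglandins, was at -1.42 ± 0.50 with AZD7507 and -2.15 ± 0.54 with vehicle. The reductase Ptgr1 differed by 0.41 and the hydroxylase Cyp4f16 by -0.17.

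Among eicosanoid receptors 10 of 17 were measured, 0 reached an unadjusted p under 0.05, and the median difference was 0.14. Cysltr1, the receptor for cysteinyl leukotrienes, was at 0.74 ± 0.50 with AZD7507 and 1.36 ± 0.43 with vehicle. The prostaglandin E2 receptor genes Ptger2 and Ptger4 differed by -0.45 and 0.15, and the prostacyclin receptor gene Ptgir by 0.44. The thromboxane receptor gene Tbxa2r was low, between -2.77 and -1.67 in all 6 libraries, with a difference of 0.03. The prostaglandin D2 receptors Ptgdr and Ptgdr2 were not analysed here.

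**Figure D4:**
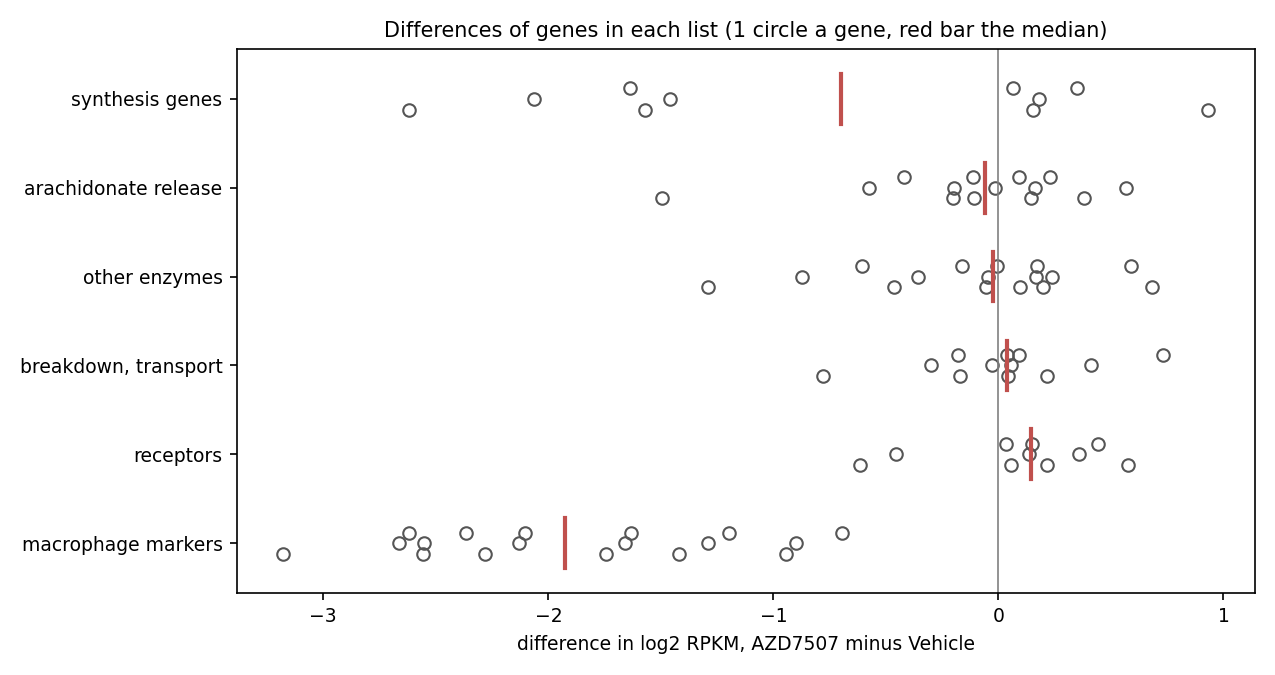
Differences in log2 RPKM (x axis, AZD7507 minus vehicle) of each measured gene in the 10 synthesis genes, 4 other lists of the eicosanoid pathway and the macrophage markers; circles are genes and red bars medians. The medians are -0.70 for the synthesis genes, between -0.06 and 0.14 for the 4 other pathway lists, and -1.93 for the macrophage markers.

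Genes with the pattern most like each member were sought among 11527 genes with a mean log2 RPKM of at least 0, by Pearson's r over the 6 libraries. With so few libraries, which share 2 groups, an r near 1 is common and serves as a description only. For Hpgds they were Rassf4 (r 0.997), Apobec1 (0.996) and Ifi207 (0.995), 3 genes that fell by 2.16, 2.11 and 1.06 (limma adjusted p 0.021, 0.031 and 0.048). Ifi207 has close paralogues, among which the counting could divide reads. For Tbxas1 they were Trpv2, Csf2rb and Cd53, with differences of -1.22, -1.0 and -0.98. Alox5 was closest to Apbb1ip, AI662270 and Igsf6, and Alox5ap to Igsf6, Ccr1 and Ms4a6c, so Igsf6 (difference -1.58) was shared by both leukotriene genes. Ltc4s was closest to Tti2, Cplx2 and Abca1. Among members with overlapping groups, Ptgs1 was closest to Bst2, Pfkm and Kcnip2, and Ptgs2 to Cnih1, Syde2 and Eif5a. Ptges was closest to Eml1, Ier3ip1 and Basp1, Ptgds to Srek1ip1, Raph1 and Mphosph9, and Ptgis to Zbtb1, Zfp429 and Spryd7. These genes had 0 calls, where all genes gave 0.337% lower and 0.0184% higher. Genes picked for likeness to a member largely share its difference or lack of one, so calls among them add no separate evidence.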

How the data were processed

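RNA of 6 tumours was sequenced from libraries depleted of ribosomal RNA (labels' protocols). The authors deposited 1 table of log2 RPKM values normalized with cqn, as the table's name says; cqn adjusts for gene length and GC content. BWA 0.7.15-r1140, HTSeq and the builds mm10 and GRCm38 are named in the submitters' processing notes. The annotation release, strand setting and filter on low genes are not given in the sources used here. Without strand, reads of Ptgs1, Ptgis, Tbxas1, Alox5ap and Ltc4s cannot be told from the antisense gene models that overlap their exons. Library medians were all 2.32 and upper quartiles 3.52, so a shift common to most genes would not show.

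Symbols were matched for 16306 of 16344 identifiers, and coordinates are those of GENCODE M21 on GRCm38. Groups followed the treatment label, with replicates numbered in the order of the records. The labels do not tie tumours to animals, and p-values measure only the spread between these samples.

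The log2 values were fitted with limma 3.58.1 in R 4.3.3 (trended, robust variance prior, no pseudocount, no filter), 2-sided, with Benjamini-Hochberg adjustment over all genes at 0.05; the fit was tested on simulated data. Ratios were compared by exact permutation in scipy 1.17.1. Alternatives were a constant prior, array weights, median centring, quantile normalization, pseudocounts of 0.1 and 1, a filter at a mean log2 RPKM of 0, leaving out each library, and leaving out both acinar-rich libraries. Since library medians and upper quartiles were already equal, median centring and quantile normalization could change little. Beside the members and Csf1r, the named genes were the 3 with the smallest p in each of 4 pathway lists and the 3 most correlated with each member; other genes were chosen after their values were seen. The members and lists were chosen with earlier results of these data known.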

Additional observations from a re-analysis of the deposited data

How the results depend on the processing

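The count of members that fell was 1 with all libraries and 0 in each fit without 1 library; it was also 1 without both acinar-rich libraries and under the other settings, where Hpgds was the member called. Over all genes, 55 fell and 3 rose. The counts were 0 to 14 lower and 0 higher without 1 library, while at an unadjusted p under 0.05 limma then gave 606 to 1359 lower and 257 to 1082 higher genes. Array weights gave 143 lower and 14 higher genes, and leaving out both acinar-rich libraries gave 13 and 1. A constant prior gave 1 higher gene. These fits without libraries hold fewer samples; the cause of the other shifts was not tested. Signs turned for Ptgds (-0.050 with array weights, -0.65 to 0.89 without 1 library) and for Ptgis (-0.023 to 0.20 without 1 library). The log-ratio of Tbxas1 to Ltc4s was -0.27 and -0.044 with pseudocounts of 1 and 0.1 and -0.21 to 0.34 without 1 library, and that of Tbxas1 to Alox5 was -0.20 with a pseudocount of 1. The signs of the other 8 members and of the other 12 ratios held under every alternative run. At a minimum mean log2 RPKM of 0, Alox5 and Ltc4s were not tested. No paired analysis was possible because the labels give no replicate numbers and pair no samples. Values under 1 RPKM, which include the AZD7507 means of Hpgds, Alox5 and Ltc4s, may rest on few reads.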
